A study of Mus musculus with 18 samples.

Results

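In 18 mouse RNA-seq libraries 8 genes that handle arginine in macrophages were examined: Slc7a2, Arg1, Arg2, Nos2, Ass1, Asl, Odc1 and Srm. They were chosen by name, and each was represented by the transcript row with the highest summed counts per 1e6 (CPM), so that 8 of 26165 genes in the table of cultured macrophages and 8 of 26149 in the table of wound macrophages were described. The study compared the wild-type (WT) form of PPARg, a lipid-sensing nuclear receptor, with T166A, a substitution of a threonine by alanine. Bone marrow-derived macrophages (BMDM) of C57BL/6J or PPARg T166A mice were grown for 7 days with the growth factor M-CSF at 50 ng/ml and gave 3 libraries per genotype, with replicates 1 and 2 in batch B1 and replicate 3 in batch B2. From wounded dorsal skin, cells bound by anti-F4/80 beads were taken at day 6, as 6 libraries of WT and 6 of PPARg T166A, without a batch label. The sources used here name no added stimulus for the cultures, and give neither the age of the mice nor how the allele was made nor how many animals stand behind a library. The p-values therefore measure the spread between these samples, which may be technical.

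Macrophages import arginine through cationic amino acid transporters, of which Slc7a2 encodes the inducible one. Inside the cell the arginases (cytosolic Arg1 and mitochondrial Arg2) split arginine into urea and ornithine, while the inducible nitric oxide synthase (Nos2) converts it to nitric oxide and citrulline, so both draw on the same substrate. Ass1 and Asl rebuild arginine from citrulline, and Odc1 and Srm lead from ornithine to putrescine and on to the polyamine spermidine. Arg1 is a classical gene of alternatively activated and wound macrophages, and Nos2 of macrophages activated by microbial products and interferon gamma.

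Depth was 40072513 to 44152639 gene counts in BMDM and 29357354 to 38774475 in wound libraries. Levels are given as normalised CPM, which are counts scaled to 1e6 of the library size after TMM normalisation, a scaling that makes most genes comparable between libraries. All 10 macrophage markers were measured in both sources, with summed levels of 32630 to 48860 normalised CPM in BMDM and 12120 to 17210 in the wound fraction. The extraction protocol names adipocytes, but 6 of 8 adipocyte markers, Adipoq and Plin1 among them, had 0 counts in all BMDM libraries. The most abundant of that list, Fabp4, was at 42.2 ± 4.57 normalised CPM in WT and 34.9 ± 5.14 in T166A BMDM (SD, n = 3). The wound fraction also held transcripts of fibroblast markers (summed 6192 to 11400 normalised CPM), endothelial markers (1088 to 2052) and keratinocyte markers (232 to 483). Adipocyte markers summed there to between 457 and 713 normalised CPM. Most of that sum was Fabp4, at 513 ± 73.2 in WT and 517 ± 74.5 in T166A (SD, n = 6). In BMDM the WT replicate 1 library stood apart. By a rule set after the values were seen (at least 8-fold above every other library after adding 3 counts, and at least 5 CPM), 14 genes were high in it alone, and Arg1 and Nos2 were among them beside the inflammatory genes Saa3, Cxcl3, Cxcl2 and Ptgs2 and the matrix genes Dcn and Tnc. Its summed fibroblast markers were 45.5 normalised CPM, against 4.25 and 5.15 in WT replicates 2 and 3, and their part in its Arg1 and Nos2 levels was not tested. The T166A replicate 3 library had 34 such genes, none of them a member, and 403 normalised CPM of summed fibroblast markers. The trend of level with transcript length also differed between BMDM libraries, with a Spearman correlation across genes of 0.066, -0.328 and -0.417 in WT replicates 1, 2 and 3 and of 0.382, 0.359 and -0.163 in the T166A replicates. It was higher in T166A at each replicate number, and its part in the BMDM differences is seen only through the alternative with the trend removed.

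In the wound fraction 2 of the 8 members, Slc7a2 and Srm, rose in T166A and 1, Odc1, fell. The test was the quasi-likelihood F test of edgeR, with p-values adjusted over all tested genes. Of 15473 tested genes 25.9% passed there, 12.7% higher and 13.2% lower. With library totals as the only scaling the 1963 higher and 2048 lower genes became 3357 and 1308, and Slc7a2, Srm and Odc1 kept their direction and call. In BMDM 0 of 8 members passed, where 9 of 13139 genes did (0.0685%, with 0.0609% higher and 0.00761% lower). At an unadjusted p under 0.05, 0 members passed in BMDM by edgeR, against 12.8% of all tested genes. In the wound fraction 7 of 8 did, against 36.9%. In BMDM 3 members did by DESeq2 and 1 by limma-voom. After adjustment DESeq2 and limma-voom also called 0 members in BMDM. By contrast, edgeR with the replicate number as a block, which treats same-numbered BMDM libraries as pairs, called 1, Arg1 (adjusted p = 0.00567). The median log2 fold change of the members, T166A over WT, was 0.32 in the wound fraction and -0.35 in BMDM, against 0.01 and -0.02 over all tested genes.

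**Figure D1:**
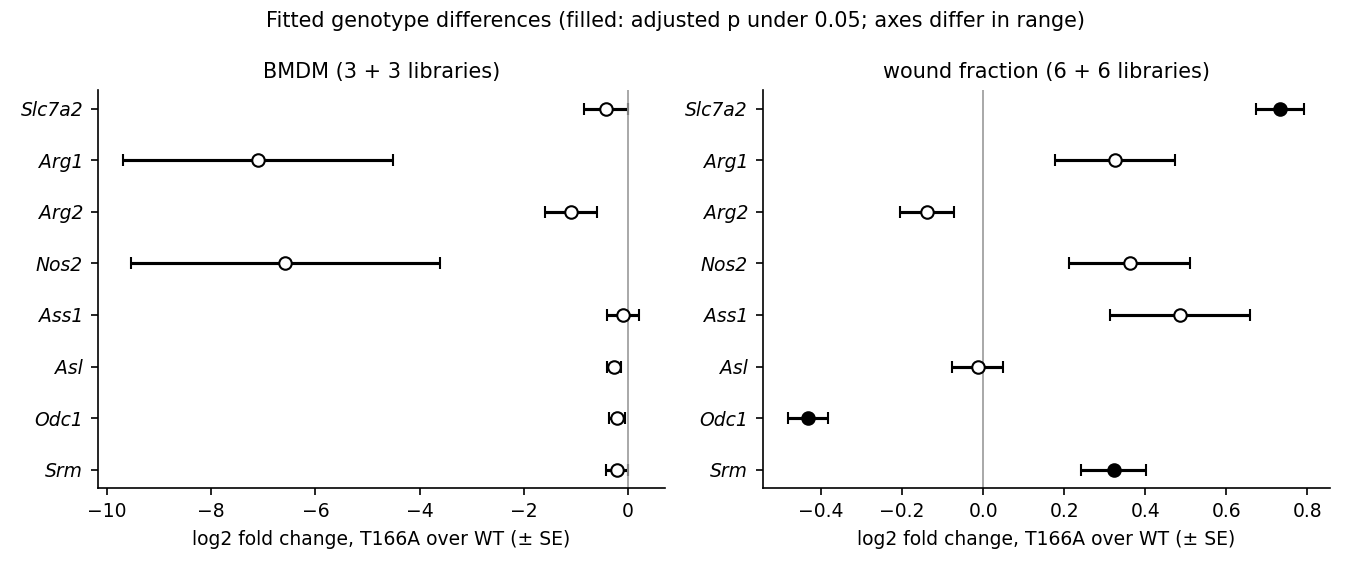
Fitted log2 fold changes (T166A over WT, horizontal axis, with the standard error as bar) of the 8 members in BMDM and in the wound fraction. Filled points passed the test: Slc7a2 (0.73), Srm (0.32) and Odc1 (-0.43) in the wound fraction and none in BMDM in this fit without the replicate block, where the bars of Arg1 and Nos2 are the widest.

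The order of the WT levels per transcript length differed between the sources. In the wound fraction Odc1 stood first at 1408 ± 34.7 normalised CPM per kb (SD, n = 6), followed by Arg1 at 114 ± 17.5 and Arg2 at 51.7 ± 1.23. Srm (22.1 ± 2.39) and Slc7a2 (20.1 ± 1.59) overlapped in their libraries, as did Ass1 (11.9 ± 1.54) and Asl (11 ± 0.187), and Nos2 stood last at 5.55 ± 1.43 normalised CPM per kb. In WT BMDM the order began with Asl at 24 ± 2.07 normalised CPM per kb (SD, n = 3), Odc1 at 17.7 ± 1.09 and Srm at 12.4 ± 3, followed by Ass1 at 2.15 ± 0.587 and Arg2 at 1.84 ± 0.497, which overlapped, and Slc7a2 at 0.736 ± 0.447. Arg1 and Nos2 have no stable place in that order, with WT ranges of 0.291 to 28 and 0 to 11.8 normalised CPM per kb. The lowest Asl library lay above the highest Odc1 library, and the lengths used, of the matching GENCODE transcripts, ran from 1338 bases for Srm to 7910 for Slc7a2. The other Slc7a2 transcript was matched to a length of 3677 bases with nearly the same counts, so the level of Slc7a2 per kb is uncertain. Culture and wound tissue were prepared and deposited separately, and the difference in level between them was not tested.

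Slc7a2, the inducible importer of arginine, had the smallest adjusted p of the members in the wound fraction. It (chromosome 8, 40862341 to 40922070, GRCm38) had a lowest, median and highest level of 141, 162 and 175 normalised CPM in the 6 WT libraries and of 249.6, 257 and 298 in the 6 T166A libraries. Every T166A library lay above every WT library, a separation seen upwards in 5.68% of tested genes. The log2 fold change was 0.73 (edgeR adjusted p = 7.25e-09, SE 0.06), a 1.66-fold rise from 159 ± 12.6 to 266 ± 19.7 normalised CPM (SD, n = 6). Both deposited transcripts of Slc7a2, which encode alternative forms of the transporter, carried nearly the same reads, with at most 34 counts between them in a wound library. They could not be told apart.

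In BMDM Slc7a2 was low. WT replicates 1, 2 and 3 had 9.85, 3.2 and 4.42 normalised CPM and T166A replicates 1, 2 and 3 had 3.67, 3.92 and 5.35. The high library was WT replicate 1, and the groups overlapped. The log2 fold change was -0.42 (edgeR adjusted p = 0.709, SE 0.43), and without WT replicate 1 it was 0.28 (edgeR adjusted p = 0.772). On the log2 CPM scale (prior count 2) the difference was -0.56 within batch B1 and 0.27 within batch B2.

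Arg1 (chromosome 10, 24915207 to 24927470), the cytosolic arginase, was abundant in all wound libraries. WT replicates 1 to 6 had 144, 147, 208, 149, 185 and 176 normalised CPM. The T166A replicates 1 to 6 had 200, 155, 276, 174, 229 and 234. The 2 highest libraries, replicates 3 and 6, were of the T166A group and the 3 lowest of the WT group, and the groups overlapped. The mean was 168 ± 25.8 in WT and 211 ± 44 in T166A (SD, n = 6). The log2 fold change of 0.33 (SE 0.15) missed the threshold (edgeR adjusted p = 0.135). Each T166A library lay above the WT library of the same number, though the labels give no pairing of the wound libraries beyond that number. With the replicate number as a block Arg1 passed (0.31, SE 0.05, edgeR adjusted p = 5.53e-05). It also passed with the length trend removed as well (edgeR adjusted p = 4.05e-05), and in these 2 of 22 alternatives only.

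In BMDM Arg1 was far higher in WT replicate 1 than in the other libraries. That library held 1778 Arg1 counts (41.4 normalised CPM), and WT replicates 2 and 3 held 18 and 69 counts (0.43 and 1.8 normalised CPM). The T166A replicate 1 library held 14 counts (0.317 normalised CPM), and T166A replicates 2 and 3 held 0, where 3 counts, the limit that a count of 0 allows, are 0.0691 and 0.07 normalised CPM. Every T166A library lay below every WT library, a separation seen downwards in 7.66% of tested genes, but the WT libraries differed among themselves far more than WT replicate 2 and T166A replicate 1. The log2 fold change of -7.10 (edgeR adjusted p = 0.409, SE 2.59) did not pass, and without WT replicate 1 it was -3.57 (edgeR adjusted p = 0.618). With the replicate number as a block the value was -7.14 (SE 0.44) and passed (edgeR adjusted p = 0.00567). It also passed when the length trend was removed as well (edgeR adjusted p = 0.00168). Of the pairs in these fits, those of replicates 2 and 3 were 18 and 69 counts against 0. Only the pair of replicate 1, 1778 counts against 14, gave a finite ratio, and its WT library is the one that stood apart. Within the batches the difference in log2 CPM was -5.08 (B1) and -5.29 (B2). A fitted fold change against libraries at 0 depends on the prior count and is no bound.

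Arg2 (chromosome 12, 79130788 to 79156301), the mitochondrial arginase, was nearly level across WT wounds. Its lowest, median and highest values were 70.7, 74.3 and 75.3 normalised CPM in WT and 55.4, 66.2 and 79.8 in T166A wound libraries, so the T166A group was wider and enclosed the WT group. Its log2 fold change was -0.14 (edgeR adjusted p = 0.131, SE 0.07), and it passed without T166A replicate 3, the highest library (-0.19, edgeR adjusted p = 0.0215). In BMDM, WT replicates 1, 2 and 3 had 3.33, 1.91 and 2.64 normalised CPM of Arg2 and T166A replicates 0.634, 1.152 and 2.24. The groups overlapped, and the log2 fold change of -1.10 (SE 0.50) did not pass (edgeR adjusted p = 0.402). Leaving out WT replicate 1 gave -0.71 and leaving out T166A replicate 1 gave -0.75, and the batches gave -1.51 (B1) and -0.23 (B2).

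Nos2 (chromosome 11, 78920787 to 78960226), the inducible nitric oxide synthase, was detected in every wound library. WT replicates 1 to 6 had 21.6, 19.4, 33.9, 16.4, 23.3 and 25 normalised CPM. The T166A replicates 1 to 6 had 33.5, 27.4, 27.8, 26.4, 28.6 and 36. All WT libraries but replicate 3 lay below all T166A libraries, and WT replicate 3 was second only to T166A replicate 6. The mean was 23.3 ± 5.99 in WT and 30 ± 3.86 in T166A (SD, n = 6), with a log2 fold change of 0.36 (edgeR adjusted p = 0.0961, SE 0.15). Without WT replicate 3 it passed, at 0.50 (edgeR adjusted p = 0.00146), and it passed by DESeq2 (0.36, adjusted p = 0.0242) and limma-voom (0.42, adjusted p = 0.0485), among 6 of 22 alternatives in all.

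In BMDM the highest Nos2 library was again WT replicate 1. It held 2121 counts (49.4 normalised CPM), WT replicate 2 held 0 and WT replicate 3 held 67 (1.75 normalised CPM). The T166A replicates 1, 2 and 3 held 18, 6 and 0 counts, or at most 0.408 normalised CPM. The groups overlapped, since WT replicate 2 and T166A replicate 3 were both at 0. The log2 fold change of -6.58 (edgeR adjusted p = 0.485, SE 2.96) was -1.16 without WT replicate 1 (edgeR adjusted p = 0.951) and passed without WT replicate 2 (-7.53, edgeR adjusted p = 0.000181). The batches gave -2.40 (B1) and -5.25 (B2) in log2 CPM. The 3 deposited Nos2 transcripts shared most reads and differed by at most 54 counts in a BMDM library.

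**Figure D2:**
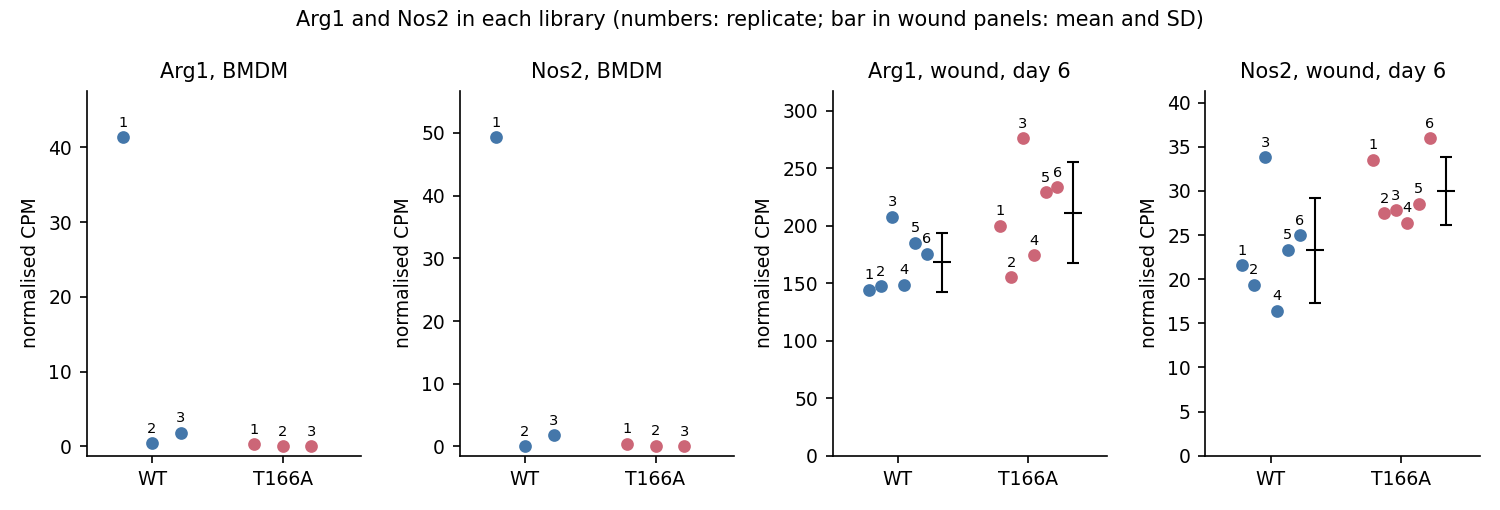
Normalised CPM of Arg1 and Nos2 in each BMDM and wound library by genotype, with the replicate number beside each point and, for the wound fraction, the mean and SD. In BMDM the 41.4 and 49.4 normalised CPM of WT replicate 1 stand far above the other 5 libraries, and in the wound fraction the genotypes overlap for both genes.

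Arg1 exceeded Nos2 in every wound library when both were set on transcript length. The ratio of Arg1 to Nos2 normalised CPM per kb had a lowest, median and highest value of 17.4, 20.8 and 25.7 in WT and of 16, 18.6 and 28.1 in T166A wounds. The ranges of the genotypes overlapped almost fully. No ratio was formed in BMDM, where counts of 0 occur.

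Citrulline is turned back into arginine by Ass1 and then Asl. Ass1 (chromosome 2, 31470270 to 31520670) and Odc1 were the 2 of 8 members with a promoter sequence in the RefSeq-derived table of GRCm38.p6. They are printed to show the start region of the member that fell in the wound fraction, Odc1, beside that of one that did not pass, Ass1, with E-box matches (CACGTG, the binding letters of MYC and MAX) and GC box matches (GGGCGG) in capitals. Each runs 5′ to 3′ on the plus strand from 250 bases before to 50 after the start site of the sequence table, which is the gene start given here for Ass1 and lies 65 bases downstream of it for Odc1.
Ass1 promoter, chr2:31470020-31470319: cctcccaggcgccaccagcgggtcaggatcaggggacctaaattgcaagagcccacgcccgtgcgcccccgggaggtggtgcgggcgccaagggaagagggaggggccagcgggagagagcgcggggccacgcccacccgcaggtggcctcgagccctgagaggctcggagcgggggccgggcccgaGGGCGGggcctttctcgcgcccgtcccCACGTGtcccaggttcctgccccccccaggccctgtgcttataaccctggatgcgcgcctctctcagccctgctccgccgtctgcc
Odc1 promoter, chr12:17544623-17544922: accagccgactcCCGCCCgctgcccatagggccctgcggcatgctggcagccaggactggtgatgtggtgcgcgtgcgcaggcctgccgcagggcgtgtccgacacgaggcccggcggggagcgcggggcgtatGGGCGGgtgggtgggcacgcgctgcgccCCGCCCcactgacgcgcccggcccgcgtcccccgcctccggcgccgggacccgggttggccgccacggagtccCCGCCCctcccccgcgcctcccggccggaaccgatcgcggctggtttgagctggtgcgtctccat
The Ass1 window held 1 E-box, with its first base at position -36 from the start site, and 1 GC box. The Odc1 window held 0 E-boxes and 4 GC boxes on either strand. An E-box was found in 7.15% and a GC box in 35.7% of 32851 promoters of the same length, and the G and C content was 74% for Ass1 and 78% for Odc1 against a mean of 53.8%. Neither window held the letters of a STAT6 site (in 6.95% of promoters), a CCAAT box (CCAAT, 37.4%), a TATA box (TATAAA, 13.6%), a cyclic AMP response element (1.79%), the nuclear receptor half-site (AGGTCA, 16.3%) or its direct repeat with 1 base between (0.0396%, which holds the half-site), all searched on both strands. Matches of letters are a description and no measure of binding, and sequence of these genes outside the windows was not searched.

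Ass1 levels varied most among the T166A wound libraries. The lowest, median and highest were 17.8, 19.7 and 24.6 normalised CPM in WT and 18, 26.4 and 42.2 in T166A wound libraries. Every T166A library but replicate 3 lay above the highest WT library, and that replicate lay near the lowest. Its log2 fold change was 0.49 (SE 0.17) and missed the threshold (edgeR adjusted p = 0.0598). Ass1 passed in 7 of 22 alternatives: without T166A replicate 3 (0.59, edgeR adjusted p = 0.00503), without WT replicate 4 (0.55, edgeR adjusted p = 0.0471), by DESeq2 (adjusted p = 0.0362), by limma-voom (0.0437), with the stricter filter (0.0484), with transcripts summed (0.0351) and with library totals alone (0.0304). In BMDM Ass1 was at 3.65 ± 0.996 normalised CPM in WT and 3.44 ± 0.824 in T166A (SD, n = 3), with a log2 fold change of -0.09 (edgeR adjusted p = 0.926, SE 0.31), 0.03 within batch B1 and -0.30 within B2.

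Asl (chromosome 5, 130011258 to 130024381), which completes the step begun by Ass1, had a wound difference close to 0. The lowest, median and highest were 26.1, 26.5 and 27.4 normalised CPM in WT and 23.1, 26.7 and 28.2 in T166A wound libraries, so the T166A range enclosed the WT range. Its log2 fold change was -0.01 (edgeR adjusted p = 0.902, SE 0.06), and the sign turned with library totals as the only scaling (0.07, edgeR adjusted p = 0.42). In BMDM, WT replicates 1, 2 and 3 had 52.2, 61.2 and 60.5 normalised CPM of Asl, and T166A replicates 47.7, 47.8 and 47.3. Every T166A library lay below every WT library, a separation seen downwards in 7.66% of genes tested in BMDM. The log2 fold change of -0.27 (SE 0.13) did not pass (edgeR adjusted p = 0.422). It was -0.24 in batch B1 and -0.35 in batch B2 on the log2 CPM scale (prior count 2).

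Odc1 (chromosome 12, 17544808 to 17551502), the first and rate-limiting enzyme of polyamine synthesis, was the most abundant member in the wound and fell in T166A. The lowest, median and highest were 2980, 3142 and 3169 normalised CPM in WT and 2154, 2307 and 2476 in T166A wound libraries. Every T166A library lay below every WT library, a separation seen downwards in 6.37% of tested genes. Odc1 fell by 0.43 on the log2 scale (edgeR adjusted p = 1.08e-06, SE 0.05), from 3109 ± 76.5 to 2313 ± 113 normalised CPM (SD, n = 6). In BMDM Odc1 was at 38.3, 41.6 and 36.9 normalised CPM in WT replicates 1, 2 and 3 and at 28.9, 35.8 and 35.8 in the T166A replicates. Here too each T166A library lay below each WT library, a separation seen downwards in 7.66% of genes tested in BMDM. The log2 fold change of -0.21 (SE 0.15) did not pass (edgeR adjusted p = 0.586). The batch values were -0.31 in B1 and -0.04 in B2.

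Srm (chromosome 4, 148591513 to 148594619), which makes spermidine from the putrescine that Odc1 supplies, went the other way in the wound fraction. The lowest, median and highest were 24.8, 30.1 and 33.9 normalised CPM in WT and 30.8, 37.1 and 43 in T166A wound libraries, and the groups overlapped through T166A replicate 3. Srm rose 1.25-fold (log2 fold change 0.32, SE 0.08, edgeR adjusted p = 0.00415), from 29.5 ± 3.2 to 37.1 ± 4.11 normalised CPM (SD, n = 6). In BMDM it was at 16.6 ± 4.01 in WT and 14 ± 1.84 in T166A (SD, n = 3), with a log2 fold change of -0.21 (edgeR adjusted p = 0.696, SE 0.21), -0.42 in batch B1 and 0.18 in batch B2.

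**Figure D3:**
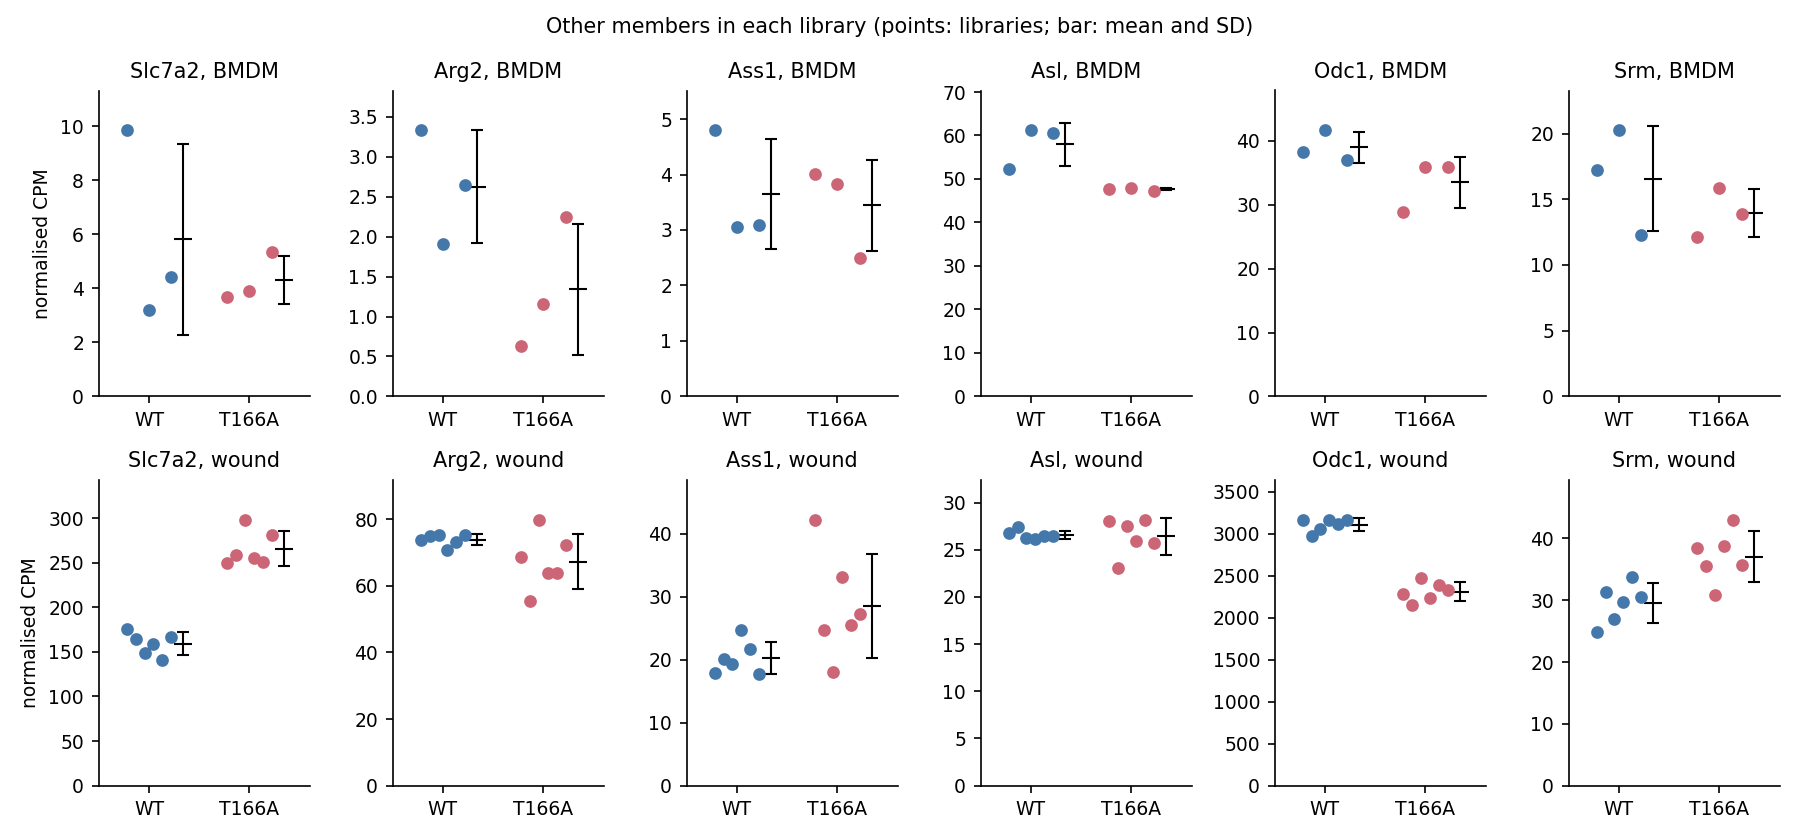
Normalised CPM of the other 6 members in each BMDM library (top) and wound library (bottom) by genotype, with mean and SD. In the wound fraction the genotypes separate for Slc7a2 (141 to 175 against 249.6 to 298) and Odc1 (2980 to 3169 against 2154 to 2476) and overlap for the other 4.

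Markers of cell types moved with genotype in the wound fraction as well, where 12.7% of all tested genes were higher and 13.2% lower. Of 10 macrophage markers 7 were lower in T166A (Adgre1, Csf1r, Lyz2, Cd68, C1qa, Mrc1 and Itgam) and 0 higher, with summed levels of 14200 to 17210 normalised CPM in WT and 12120 to 13980 in T166A. The most abundant, Lyz2, fell from 5409 ± 483 to 4284 ± 172 normalised CPM. Of 7 endothelial markers 4 were higher, with sums of 1088 to 1516 in WT and 1415 to 2052 in T166A, and Pecam1 rose from 379 ± 46.6 to 549 ± 74.4. Neutrophil markers had sums of 34.8 to 120 in WT and 34.1 to 52.2 in T166A, with 3 of 6 tested members lower, S100a9 among them at 37.5 ± 17.1 and 17.8 ± 4.49. Of 10 keratinocyte markers (Krt14 at 70.2 ± 21.5 and 83.2 ± 16.4) and 8 fibroblast markers (Col3a1 at 3973 ± 612 and 3760 ± 759) 0 passed by edgeR. No marker of the endothelial, neutrophil, keratinocyte or fibroblast list was at 0 in all wound libraries. The part of these markers in the differences of Slc7a2, Odc1 and Srm was not tested. In such bulk samples, fewer cells of a type and less RNA per cell cannot be told apart.

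The genotype effect was then compared between the sources in a single edgeR fit over all libraries. It differed for 5 of 8 members, each with a higher T166A effect in the wound fraction than in BMDM. Of 16586 tested genes 14.3% differed, 6.1% in this direction and 8.16% in the other. These 1011 higher and 1354 lower genes became 766 and 1626 with RLE factors, and the balance turned with the length trend removed (1082 and 834), without BMDM WT replicate 3 (1867 and 1534) and without BMDM T166A replicate 3 (1870 and 1540). The difference was 7.45 for Arg1 (edgeR adjusted p = 0.0081, SE 1.58), 6.96 for Nos2 (edgeR adjusted p = 0.0146, SE 1.66), 1.20 for Slc7a2 (edgeR adjusted p = 0.0332, SE 0.35), 0.93 for Arg2 (edgeR adjusted p = 0.0422, SE 0.29) and 0.57 for Srm (edgeR adjusted p = 0.0443, SE 0.19) on the log2 scale. Odc1 (-0.19, edgeR adjusted p = 0.27), Asl (0.30, edgeR adjusted p = 0.0694) and Ass1 (0.61, edgeR adjusted p = 0.167) did not pass. Over 27 alternatives the call held in 25 for Arg1, 24 for Slc7a2, 22 for Nos2, 11 for Arg2 and 8 for Srm. Srm lost it with RLE factors (edgeR adjusted p = 0.0623), the stricter filter (0.0514), transcripts summed (0.0549) and the length trend removed (0.0621), each of which left 4 members. Without the BMDM WT replicate 1 library 3 members passed, namely Arg1 (3.38, edgeR adjusted p = 0.0193), Slc7a2 (0.49, edgeR adjusted p = 0.024) and Asl (0.36, edgeR adjusted p = 0.039). When T166A replicate 1 or 2 of BMDM was left out 1 member passed, and 3 passed when any of WT replicates 1, 3, 4 and 6 or T166A replicates 1, 4, 5 and 6 of the wound fraction was left out. The edgeR fit shared a single spread per gene between the sources. Its SE for Arg1 and Nos2 lay below those of the BMDM effects alone (2.59 and 2.96). With a spread estimated for each source by limma-voom, 0 of 8 members passed and 575 of all genes did. At an unadjusted p under 0.05 these were 3 members and 3043 genes.

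A list of 36 further genes of arginine, nitric oxide cofactor and polyamine metabolism gave the surroundings of the members. In the wound fraction 33 were tested, of which 5 were higher, 5 lower and 23 did not pass, where 25.9% of all tested genes passed, with a median log2 fold change of -0.02 against 0.01 over all genes. With library totals alone 11 were higher and 4 lower. Among the arginine carriers Slc7a1, the constitutive cationic transporter, rose from 127 ± 7.79 to 153 ± 9.57 normalised CPM (log2 fold change 0.26, SE 0.05, edgeR adjusted p = 0.00077). Slc3a2, the heavy chain shared by several amino acid exchangers, fell by 0.31 (edgeR adjusted p = 8.32e-05, SE 0.05), from 863 ± 55.5 to 699 ± 26.4 normalised CPM. Prmt1, which methylates arginine in proteins, rose from 36 ± 3.35 to 46.1 ± 4.82 normalised CPM (edgeR adjusted p = 0.000921).

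On the side of nitric oxide, Nos3, the endothelial synthase, rose from 52.6 ± 11.6 to 84.9 ± 15.2 normalised CPM (log2 fold change 0.69, SE 0.16, edgeR adjusted p = 0.00887), beside the rise of 4 of 7 endothelial markers given above. The part of these markers in the difference of Nos3 was not tested. Gch1, the first enzyme of synthesis of the cofactor tetrahydrobiopterin, fell by 0.22 (edgeR adjusted p = 0.0026, SE 0.05). Of proline metabolism, which starts from or ends in the ornithine and glutamate pools, Aldh18a1 rose by 0.41 (edgeR adjusted p = 0.000572, SE 0.08) and Prodh by 0.50 (edgeR adjusted p = 0.0359, SE 0.17) on the log2 scale. Prodh, at 2.84 ± 0.566 normalised CPM in WT, lost its call with transcripts summed (edgeR adjusted p = 0.0571) and when any one of WT replicates 2, 3 and 5 (edgeR adjusted p = 0.0537, 0.0822 and 0.0833) or T166A replicates 3, 5 and 6 (0.0656, 0.0712 and 0.115) was left out.

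Of polyamine metabolism, Mat2a, which makes the S-adenosylmethionine consumed in spermidine synthesis, fell by 0.45 (edgeR adjusted p = 1.21e-06, SE 0.05), from 279 ± 11.9 to 205 ± 14.2 normalised CPM. Every T166A library of Mat2a lay below every WT library, a separation seen downwards in 6.37% of genes tested in the wound fraction. Dhps, which uses spermidine to modify the translation factor Eif5a, fell by 0.26 (edgeR adjusted p = 0.00281, SE 0.06). Atp13a2, a lysosomal polyamine exporter, fell by 0.23 (edgeR adjusted p = 0.0222, SE 0.07) and lost its call with library totals alone (edgeR adjusted p = 0.103) and when WT replicate 1 or 4 (0.0606 and 0.0547) or T166A replicate 2 or 4 (0.0562 and 0.0558) was left out. The antizyme Oaz1, which marks Odc1 protein for degradation, was at 318 normalised CPM in WT and 314 in T166A (edgeR adjusted p = 0.771), and spermine synthase Sms was at 27.6 and 30 (edgeR adjusted p = 0.184); both were named after their values were seen. In BMDM 30 of the 36 genes were tested and 0 passed by edgeR, DESeq2 or limma-voom. At an unadjusted p under 0.05 by edgeR 3 did, against 12.8% of all tested genes. The median log2 fold change of the tested genes of the list was -0.12.

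**Figure D4:**
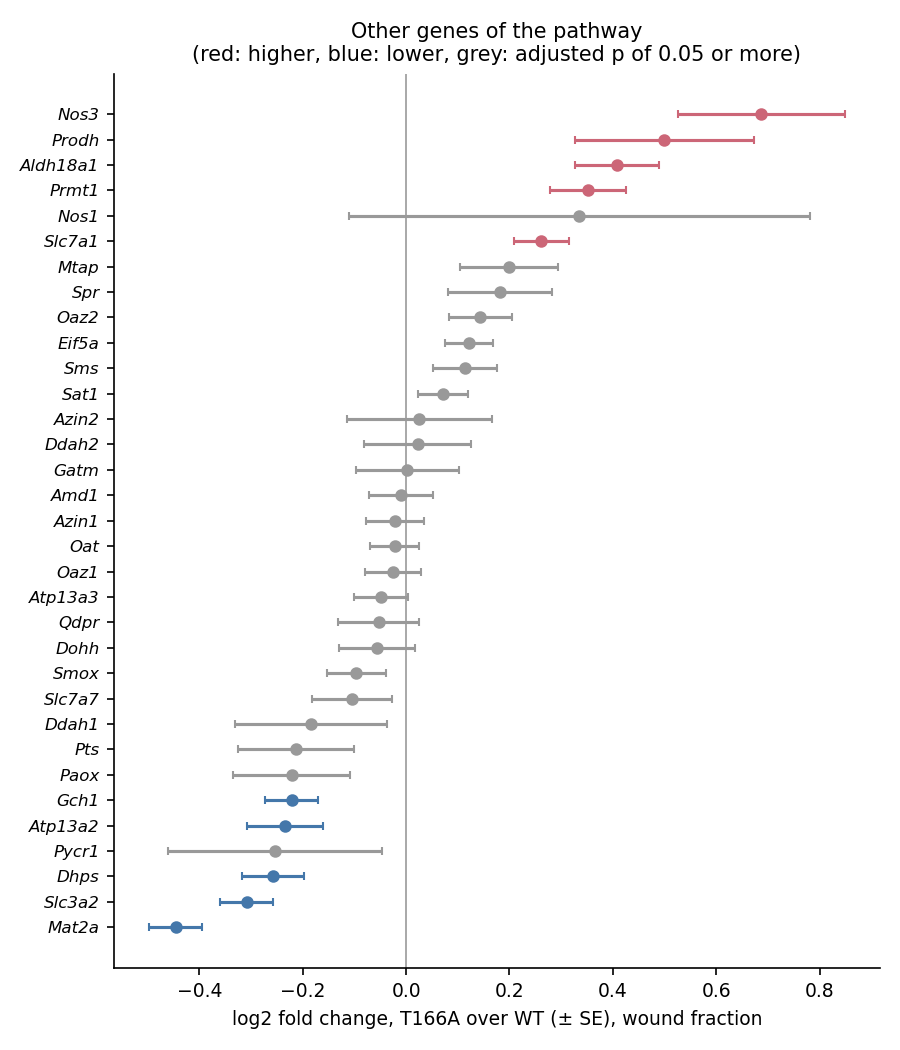
Log2 fold change (T166A over WT, horizontal axis, bar: standard error) in the wound fraction of the 33 tested further genes of the pathway. The 5 higher genes run from Slc7a1 (0.26) to Nos3 (0.69) and the 5 lower ones from Gch1 (-0.22) to Mat2a (-0.45).

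Known upstream factors of these genes were counted as well. Of 13 listed factors, all tested in the wound fraction, 2 were higher and 6 lower. Over all tested genes there 12.7% were higher and 13.2% lower. Nfkb1, an NF-kB subunit that acts on Nos2, fell from 1433 ± 32.8 to 1149 ± 36.7 normalised CPM (log2 fold change -0.32, SE 0.05, edgeR adjusted p = 1.27e-05). Cebpb, which acts on the Arg1 enhancer, fell from 1116 ± 114 to 825 ± 87.3 normalised CPM (log2 fold change -0.44, SE 0.07, edgeR adjusted p = 0.000168). Max, the partner of MYC, fell by 0.27 (edgeR adjusted p = 0.000168, SE 0.05), while Myc itself, named after its value was seen, was at 79.6 normalised CPM in WT and 80 in T166A (edgeR adjusted p = 0.981). Ifngr1, a chain of the interferon gamma receptor, rose by 0.27 (edgeR adjusted p = 0.000907, SE 0.06), while the other chain, Ifngr2, named after its value was seen, fell by 0.21 (edgeR adjusted p = 0.00415, SE 0.05). Hif1a, a hypoxia factor, rose by 0.19 (edgeR adjusted p = 0.0126, SE 0.06). In BMDM 0 of 12 tested factors passed by edgeR. At an unadjusted p under 0.05 by edgeR 3 did, against 12.8% of all tested genes. By DESeq2 Myc (-1.05, adjusted p = 0.00352) and Cebpb (-0.48, adjusted p = 0.0127) were lower there.

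Over the 12 wound libraries the genes most like Arg1 in log2 CPM were Tspan4 (Pearson r = 0.923), Gtpbp2 (0.905) and Sesn3 (0.897), among 10216 genes compared. Those most like Nos2 were Usp42 (0.899), Ttll7 (0.892) and Upf2 (0.868). Of these 6 genes, Ttll7 (log2 fold change 0.56, edgeR adjusted p = 0.00301) and Upf2 (0.30, edgeR adjusted p = 0.00847) were higher in T166A. The correlations share the depth and cell make-up of the libraries and were picked as the highest of many.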

How the data were processed

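For BMDM and for wound macrophages the authors deposited a table of raw counts, with RefSeq transcripts as rows. Tools named in the submitters' processing notes are HISAT2 2.2.1, featureCounts, cutadapt 4.4 and FastQC 0.12.1, with the build mm10. The sources used here do not give the rules on strand, multi-mapping and overlap.

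Of 45895 and 45843 transcript rows, 117 in each table matched no gene and were left out (0.514% and 0.187% of counts). Transcripts of a gene carried the same reads, so only the transcript highest in summed CPM was kept per gene. Differences were tested with edgeR 4.0.16 in R 4.3.3 (TMM, filterByExpr with a minimum count of 10 and total of 15, robust quasi-likelihood F test, Benjamini-Hochberg threshold 0.05), with batch in BMDM. All libraries entered the fit of the difference between sources. Standard errors came from the log2 fold change and F. The biological coefficient of variation came to 0.279 (BMDM) and 0.133 (wounds), with 3 and 10 residual degrees of freedom. Lengths came from GENCODE transcripts. The code was tested on simulated data.

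The labels give the BMDM batch but no pairing beyond the replicate number. Same-numbered deviations from group means correlated at 0.2, 0.115 and 0.185. Replicate 3 is the only B2 library of each genotype, so its match cannot be told apart from the batch. Whether the BMDM numbers mark true pairs is not known. No libraries were duplicates. Floors (3 counts) cover counting error only, while the SD and SE include the spread between libraries.

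The members, gene lists and rules were chosen with earlier results of these data known. The rule named all members, up to 5 called pathway genes by adjusted p for each direction and source, up to 3 called upstream factors likewise, the most abundant marker of each cell type list, and the 3 genes most like Arg1 and Nos2. The lists of monocyte, dendritic, T and NK, mast, adipocyte, skeletal muscle, osteoclast and progenitor markers were also measured. Alternatives were RLE factors, no filter and a minimum count of 50, DESeq2 1.42.0, limma-voom 3.58.1 with quality weights, transcripts summed, a replicate block, BMDM without the batch term or from batch B1 only, each library's length trend removed (also with the block), quality weights per source for the difference between sources, and leaving out each library. Scaling by library totals, the counts over all genes of the difference between sources, and those over upstream factors were added after seeing the data. The result of 1 upstream factor and 1 motif is not reported here.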

Additional observations from a re-analysis of the deposited data

Results flagged for a closer look

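The genotype effect differed between wound fraction and BMDM by edgeR's test of the difference for 5 members: Arg1 (7.45 on the log2 scale), Nos2 (6.96), Slc7a2 (1.20), Arg2 (0.93) and Srm (0.57). Without single BMDM libraries 3 members passed (WT replicate 1 left out) or 1 (T166A replicate 1 or 2 left out), and 3 passed when a wound library was left out (any of WT 1, 3, 4 and 6 and T166A 1, 4, 5 and 6). In the WT replicate 1 BMDM library, Arg1 stood at 41.4 and Nos2 at 49.4 normalised CPM, and without it the differences were 3.38 and 2.01, the latter with an edgeR adjusted p of 0.234. The edgeR fit shared a single spread per gene between the sources, and with a spread for each source by limma-voom 0 members passed. In 0 of 16 wound groups of 6 libraries (each member in each genotype) did a single library lie apart by Dixon's criterion at 95%.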

How the results depend on the processing

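Slc7a2, Odc1 and Srm kept their direction and call in the wound fraction in all 22 alternatives, with log2 fold changes of 0.698 to 0.82, -0.452 to -0.345 and 0.277 to 0.408. The members called there rose from 3 to 5 with DESeq2, limma-voom, library totals alone, the replicate block and the length trend removed with replicate block, and ranged from 3 to 5 with single libraries left out. The labels give no pairing of the wound libraries beyond the replicate number, which the main fit did not use. Over all tested genes same-numbered deviations correlated at -0.045 to 0.09, and 1 of 6 libraries correlated best with its own number. Yet summed fibroblast markers were highest in replicate 1 (11280 in WT, 11400 in T166A) and lowest in replicate 3 (7361 and 6192) of both genotypes. Summed keratinocyte markers were lowest in WT replicate 1 and T166A replicate 3. Both are examples from the marker lists and do not decide whether the replicate numbers mark pairs. The 4011 genes called became 4549 with the block. With the replicate block Arg1 (0.31, edgeR adjusted p = 5.53e-05) and Nos2 (0.39, edgeR adjusted p = 0.0202) passed. In BMDM the replicate block, alone or with the length trend removed, called 1 member, and single libraries left out gave 0 to 1. The block changed no other member's call in BMDM. The 9 genes called in BMDM became 105 without a filter, 15 with the stricter filter, 400 with DESeq2, 177 with limma-voom, 0 with transcripts summed, 20 with the length trend removed, 25 with the replicate block as well, 0 without a batch term, 21 in batch B1 alone, and 0 to 18 with single libraries left out: 0 when WT 1, WT 3, T166A 1 or T166A 2 was left out (unadjusted p under 0.05: 1280, 2303, 1072 and 859), 14 without WT replicate 2 and 18 without T166A replicate 3. Members whose effect differed between sources were 1 with limma-voom, 0 with weights per source and 1 to 5 with single libraries left out, and the 2365 genes called in interaction of genotype with source became 1537 and 575. Uncalled signs turned for Ass1 in BMDM with the length trend removed (0.017, and 0.046 with the replicate block), for Asl in the wound fraction with library totals alone (0.072) and, leaving out single libraries, for Slc7a2 (-0.79 to 0.28) and Ass1 (-0.29 to 0.10) in BMDM and Asl in wounds (-0.032 to 0.022). The cause was not tested. In BMDM, Arg1 and Nos2 are limited by counts of 0 in some libraries and by the spread between WT libraries. The WT replicates 1, 2 and 3 held 1778, 18 and 69 Arg1 counts and 2121, 0 and 67 Nos2 counts.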

Other observations

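Markers of adipocytes, in which PPARg is the master regulator, were counted in the wound fraction as well. Of all tested genes there 12.7% were higher in T166A and 13.2% lower. Of 7 tested adipocyte markers 6 were higher in T166A (Adipoq, Cfd, Cidec, Plin1, Plin4 and Retn), with a median log2 fold change of 1.65, while the most abundant, Fabp4, was at 513 ± 73.2 normalised CPM in WT and 517 ± 74.5 in T166A. The summed adipocyte markers, most of which was Fabp4, ran from 457 to 648 in WT and from 476 to 713 in T166A. All 5 skeletal muscle markers were lower, with sums of 47.9 to 71.2 against 21.4 to 31.1. Of 5 mast cell markers Kit was higher, from 52.8 ± 4.41 to 86.7 ± 13.3, and Cma1, Mcpt4 and Tpsb2 were lower.

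The monocyte list had 1 of 5 members lower (Ccr2), the dendritic cell list 1 higher (Ccr7) and 2 lower (Cd209a and Xcr1) of 6, the osteoclast list 1 of 4 tested higher (Ocstamp) and the progenitor list 1 of 5 higher (Cd34). T and NK cell markers were summed to at most 0.813 normalised CPM in a wound library, and 0 were tested. In BMDM 0 markers passed in any of the 13 lists by edgeR, where 0.0685% of all tested genes did. The upstream factor Myc, lower in BMDM by DESeq2, was at 13.2 ± 4.72 normalised CPM in WT and 6.63 ± 3.14 in T166A BMDM (log2 fold change -1.06, edgeR adjusted p = 0.168).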
